A study of Homo sapiens with 4 samples.

Results

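The genes described here are the zinc finger genes of human chromosome 19, chosen as the rows of the deposited count table whose symbol is ZNF followed by a number, with or without 1 further capital letter, and whose first listed position is on chromosome 19. There were 263 such genes among the 60606 genes of the table, against 294 genes of the same name pattern on other chromosomes and 2741 other genes on chromosome 19. The name and the position alone chose them, not their expression. The 4 libraries were made from DaroR cells, which are LNCaP prostate cancer cells made resistant to darolutamide, an antiandrogen. They were grown under rising concentrations of the drug and then kept in it for months. By the paper's account, the medium of the DaroR cells in the knockdown experiment still held darolutamide. The 2 libraries called siControl came from DaroR cells transfected with control siRNA. The 2 libraries called siLOC730101 came from DaroR cells transfected with an siRNA pool against the long non-coding RNA LOC730101. All 4 libraries thus share the resistant line, the drug selection that made it, the darolutamide in the medium and the transfection. They were made from poly(A) RNA. Nothing in the sources used here says whether the 2 libraries of a group came from separate cultures. The p-values therefore measure the spread between these libraries, which may be technical. A single line was used.

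Zinc finger proteins of this family read DNA with tandem C2H2 fingers, each folded around a zinc ion, and the fingers are joined by a short conserved linker. Most of those encoded on chromosome 19 also carry a KRAB box, the part that recruits the corepressor TRIM28 and, through it, enzymes that place repressive histone methylation. They are best known for silencing transposable elements, and they arose by repeated tandem duplication, which is why they stand in clusters along the chromosome.

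The targeted RNA, the cell identity and the depth were checked first. LOC730101 (ENSG00000216775 in the table) had 47.4 and 50.6 normalized CPM (counts scaled to a common library size) in the siControl libraries and 15.4 and 17.9 in the siLOC730101 libraries, a log2 fold change of -1.56 (SE 0.116, adjusted p = 4.34e-06 by edgeR's quasi-likelihood test with Benjamini-Hochberg adjustment). The prostate luminal and LNCaP markers KLK3, KLK2, HOXB13, TMPRSS2, FOLH1, KRT8 and KRT18 were each expressed, while the basal markers KRT5 and TP63 and the leukocyte marker PTPRC had 0 counts in every library. Of the fibroblast markers, DCN had 2 counts in all, while COL1A1 had 10.98 to 14.7 CPM. The library totals were 39213498 to 53368158 counts, and the zinc finger genes took 0.413% to 0.467% of them.

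Of the 263 genes, 232 had enough counts to be tested and 31 had not, of which 11 had 0 counts in every library. The untested genes had at most 11 counts on average over the libraries. The tested genes are therefore only the expressed ones, and 14 of the 31 untested genes lay in a single cluster, described below as block 6. Complete coding sequences were found for 245 genes, and together they encoded 3094 C2H2 fingers, with a median of 12 fingers and at most 36. A KRAB box was found in 209 of the 245, and 16 further genes had pseudogene names, 9 of which were expressed enough to be tested.

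Some promoter sequences were common in certain clusters and rare in others. RefSeq promoters (GRCh38.p14, from 250 bases before to 50 bases after the start) were matched for 216 of the 263 genes by symbol. The set shown here holds CCAATCAG, a longer form of the CCAAT box, in capitals, in genes of the cluster at 19.7 to 24.1 Mb. Many promoters of that cluster carry the motif in a pair, and for ZNF714, ZNF431, ZNF726 and ZNF85 both copies are given, the farther one first. ZNF714, ZNF431 and ZNF726 are shown because of their fold changes, which were seen before they were chosen.
ZNF714 far copy, chr19:21082105-21082134, plus strand: ttaaaagttatCCAATCAGcgacgctgggt
ZNF714 near copy, chr19:21082134-21082163, plus strand: ttgggaaccgtCCAATCAGgcctgcagctg
ZNF431 far copy, chr19:21141942-21141971, plus strand: ttaaacgttatCCAATCAGcgacgctaggc
ZNF431 near copy, chr19:21141971-21142000, plus strand: ctgggaaccgtCCAATCAGgcacgcagctg
ZNF726 far copy, chr19:23914788-23914817, plus strand: ttaaacgttatCCAATCAGagacgctgtcc
ZNF726 near copy, chr19:23914817-23914846, plus strand: ctgggaactgtCCAATCAGgcacgcagctg
ZNF85 far copy, chr19:20923159-20923188, plus strand: ttaaatatcatCCAATCAGagacgctgggc
ZNF85 near copy, chr19:20923188-20923217, plus strand: ctgggaaccgtCCAATCAGgaacgcagctg
ZNF91, chr19:23395511-23395540, minus strand: ctgggaactgtCCAATCAGgcacaaagctg
ZNF681, chr19:23758930-23758959, minus strand: ctgggaactgtCCAATCAGgcatgcagctg
ZNF254, chr19:24087124-24087153, plus strand: ctgggaactgtCCAATCAGgcacacagctg
ZNF563 and ZNF443, of the cluster at 11.5 to 12.6 Mb, carry the same letters in other surroundings.
ZNF563, chr19:12333734-12333763, minus strand: tggagccctatCCAATCAGagctatggggc
ZNF443, chr19:12441124-12441153, minus strand: tgacgccctatCCAATCAGgggcgtggggc

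A different motif was common in 3 blocks of the long arm, those numbered 10, 13 and 17 below. It is ACTACA, the core of the sequence that the activator ZNF143 is known to bind. ZNF225, ZNF227, ZNF234 and ZNF235, of block 13, carry it on the strand opposite to the gene and are not shown. In the following promoter windows of genes from 36.2 Mb onward, ACTACA is on the gene's own strand and in capitals. These genes are shown because they are among the members with the highest or lowest fold changes, of all members or, for ZNF850, of its block.
ZNF420 far copy, chr19:37078328-37078357, plus strand: gccaagcgctggACTACAtttcccagaggc
ZNF420 near copy, chr19:37078365-37078394, plus strand: ccggagcgctggACTACAtttcccagaggc
ZNF850, chr19:36772877-36772906, minus strand: gtcgggctctggACTACAtttcccagagga
ZNF773, chr19:57499765-57499794, plus strand: ggagccacgcgaACTACActgcccagaagg
ZNF776, chr19:57746686-57746715, plus strand: gaacctgaggaaACTACAtaacccagaaat
ZNF154, chr19:57709308-57709337, minus strand: ggatctatgaaaACTACAttacctagaatg

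The repeated fingers leave the genes alike in their coding sequence as well. The linker between fingers, in its commonest amino acid form, was found 1442 times, spelled in 137 different ways, of which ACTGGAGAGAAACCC was the commonest with 324 copies (22.5%) and ACTGGAGAGAAACCT the next with 206 (14.3%). The first linker of 3 genes is given with its flanks on GRCh37, the linker in capitals, to show an abundant spelling beside a GC-rich one.
ZNF91, chr19:23544893-23544922, minus strand: atacacACTGGAGAGAAACCCtacaaatgt
ZNF681, chr19:23927332-23927361, minus strand: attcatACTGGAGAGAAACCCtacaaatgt
ZNF787, chr19:56600169-56600198, minus strand: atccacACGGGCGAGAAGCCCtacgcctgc
ZNF91 and ZNF681 spell this linker in the same letters, whereas ZNF787 does not. The likeness matters for the counts, because a read that matches several genes may not be assigned to the right one. Among the tested genes with a matched coding sequence, a median of 0.287% of the 50-base windows of a transcript also occurred in another gene's transcript, and 17 genes shared more than 10%, among them ZNF773 with 17.9% and ZNF443 with 36.1%. Windows shared with pseudogenes or with genes outside this set were not searched, so that the values are uncertain to at least that extent.

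Expression levels were compared between genes per kilobase of exon. The 232 tested genes had a median of 2.55 CPM per kilobase over the 4 libraries, close to the 2.54 of all tested genes, and ranged from 0.0276 to 36.8. By this measure the highest was ZNF146, a protein made almost only of fingers and known for its overexpression in tumours, with 36.8 CPM per kilobase. It was followed by ZNF358 with 24.4, the pseudogene ZNF542P with 18.5, ZNF524 with 18.2, ZNF865 with 14.2 and ZNF787 with 13.2. No KRAB box was found in 5 of these 6 genes, and ZNF542P had no coding sequence to search. None of them differed between the groups at the adjusted threshold, with log2 fold changes of -0.09 for ZNF146 (SE 0.0773), 0.02 for ZNF358 (SE 0.114), -0.11 for ZNF542P (SE 0.0832), 0.01 for ZNF524 (SE 0.130), -0.09 for ZNF865 (SE 0.0957) and 0.20 for ZNF787 (SE 0.103). For ZNF358 and ZNF524 the sign depended on the scaling, and both were slightly negative with upper-quartile factors or with library size alone.

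After knockdown of LOC730101, no chromosome 19 zinc finger gene was significantly changed. At an adjusted p under 0.05, 0 of the 232 tested genes were called by edgeR's quasi-likelihood test, where 0.284% of all 19349 tested genes were. DESeq2 called 1, ZNF714, and the share of all genes that it called was not worked out. The size of single values depended on the libraries, as 6 members picked after their values were seen show. They are the members that stood out as lower in the fit without siLOC730101 replicate 1, which rests on a single siLOC730101 library. With a library left out, the log2 fold change ran from -0.56 to -0.27 for ZNF714, -0.37 to -0.09 for ZNF91 and -0.39 to 0.027 for ZNF83. It ran from -0.36 to -0.20 for ZNF264, -0.46 to -0.22 for ZNF587B and -0.53 to -0.11 for ZNF682. At an unadjusted p under 0.05, 17 of the 232 were lower and 2 were higher in the siLOC730101 libraries, where 4.39% of all tested genes were lower and 6.43% were higher. The standard errors of the members' log2 fold changes had a median of 0.153, so that differences of the size seen for most of them could not be told from the spread between libraries one gene at a time.

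Most members lay slightly below 0 all the same. The median log2 fold change over the 232 genes was -0.07, with 148 of them (63.8%) below 0, against -0.0021 over all tested genes, of which 50.4% were below 0. For the 240 tested zinc finger genes on other chromosomes the median was -0.05 with 146 below 0, and for the 800 other protein-coding genes of chromosome 19 it was 0.08 with 279 below 0. No test of these differences was made. The member median minus the median of all 1124 other tested genes of chromosome 19 was -0.12, and it ran from -0.19 to -0.039 with a library left out, the smallest without siLOC730101 replicate 2. Most of the differences were under 1.25-fold, since 25 of the 232 genes were at least 1.25-fold lower and 3 were at least 1.25-fold higher. Within 0.1 of 0 on the log2 scale were 96 of the 232.

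**Figure D1:**
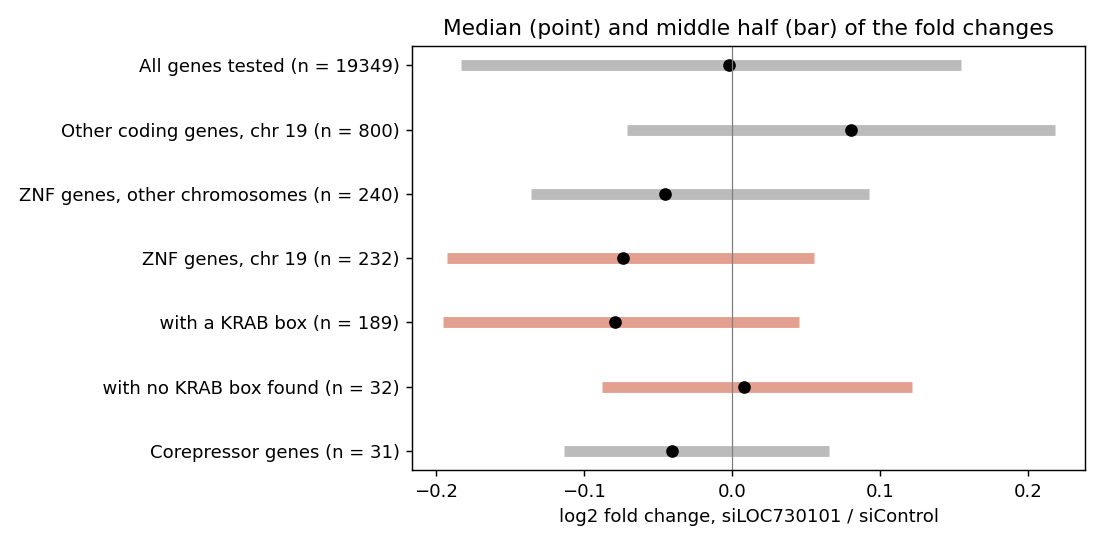
Log2 fold change of siLOC730101 against siControl (horizontal axis) for groups of genes, with the median as a point and the range from the lower to the upper quartile as a bar. The median of the 232 chromosome 19 zinc finger genes was -0.07 and that of the 189 with a KRAB box -0.08, while that of the 800 other coding genes of the chromosome was 0.08, and the bars overlap throughout.

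The summed level of all 263 genes was 4557 and 4620 normalized CPM in the siControl libraries and 4431 and 4264 in the siLOC730101 libraries. Both siLOC730101 values lay below both siControl values, the second more so. The means were 4588 ± 45.0 and 4347 ± 118 (SD, n = 2 each), a difference of -5.26%, and the exact two-sided permutation test gave p = 0.3333, the smallest p that 2 libraries against 2 can give. In these bulk samples, less RNA per cell and fewer cells that express the genes cannot be told apart.

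The 2 siLOC730101 libraries were not equally low. Taken library against library, the median log2 ratio of the 232 genes was -0.03 and -0.04 for siLOC730101 replicate 1 against each of the siControl libraries, and -0.09 and -0.12 for siLOC730101 replicate 2. Replicate 2 was itself below replicate 1 in 143 of the 232 genes, with a median log2 ratio of -0.06, while the siControl libraries differed by a median of 0.01. Over all tested genes, each of these medians was within 0.01 of 0. Without siLOC730101 replicate 2, the member median minus the median of all genes was -0.02 instead of -0.07.

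Counted gene by gene, both siLOC730101 libraries lay below both siControl libraries in 60 of the 232 genes and above them in 28, and the groups overlapped in 144. The same was true of 20.5% of all tested genes in the lower direction and 21.3% in the higher, against 25.9% and 12.1% of the members. The split depended on the scaling, with 75 lower and 17 higher under upper-quartile factors and 75 lower and 15 higher with library size alone. A change of scaling moves every gene of a library alike. The shares of all genes under these scalings were not worked out, so that these counts cannot be set beside them.

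The members fell into 17 blocks along chromosome 19, with a new block begun at each gap of 1 Mb or more, and the 9 blocks with at least 5 genes differed in their medians. Positions are those of the count table on GRCh38. Block 6, chr19:19668796-24129968, holds 42 genes that include ZNF91, ZNF93 and ZNF714. Of its 28 tested genes, 24 were below 0, and the 28 had a median log2 fold change of -0.23. The groups did not overlap in 12 genes that were lower (42.9%) and 1 that was higher (3.57%). Over all tested genes, 20.5% were separated in the lower direction and 21.3% in the higher. The difference between these shares was not tested. The summed level of block 6 was 548 and 551 CPM in the siControl libraries and 512 and 457 in the siLOC730101 libraries. Both siLOC730101 sums were below both siControl sums, and replicate 2 stood well below replicate 1. Leaving out siLOC730101 replicate 2 gave a block median of -0.12 and leaving out replicate 1 gave -0.37, so that the sign did not depend on either library and the size did.

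Other blocks had medians nearer 0, apart from the small block 1. Block 16, chr19:51571283-53580269, had 43 genes, all tested, with 32 below 0 and a median of -0.12, and its sums were 1036 and 1019 CPM against 977 and 910. Block 2, chr19:7069703-9793180, had 10 of 14 tested genes below 0 and a median of -0.12, which was -0.059 without siLOC730101 replicate 2. Block 3, chr19:11483427-12640098, had 12 of 19 below 0 and a median of -0.07. The median was -0.17 with no filter on low counts and -0.16 with DESeq2, which was also run without that filter. Both values thus take in genes of few counts that are not among the 19. With a library left out the median of block 3 was -0.14 to -0.049. The 4 tested genes of block 1, chr19:2819868-2944971, were all below 0 with a median of -0.28. The block median was 0.03 without siLOC730101 replicate 1, where the genes that passed the filter were not the same 4. In the remaining blocks about as many genes lay above 0 as below. Block 10, chr19:36182276-37817300, had 14 of 27 genes below 0, block 13, chr19:43525497-45076478, had 12 of 24, and block 17, chr19:55476617-58481230, had 29 of 58, each with a median that rounds to 0.00, and the 5 tested genes of block 9, chr19:34542462-34964229, had a median of 0.01. One library moved some of these values, since with a library left out the median ran from -0.14 (without siControl replicate 1) to 0.064 in block 13, from -0.036 to 0.071 in block 9, from -0.043 to 0.047 in block 10 and from -0.046 to 0.019 in block 17. Without block 6, the median over the remaining members was -0.05.

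**Figure D2:**
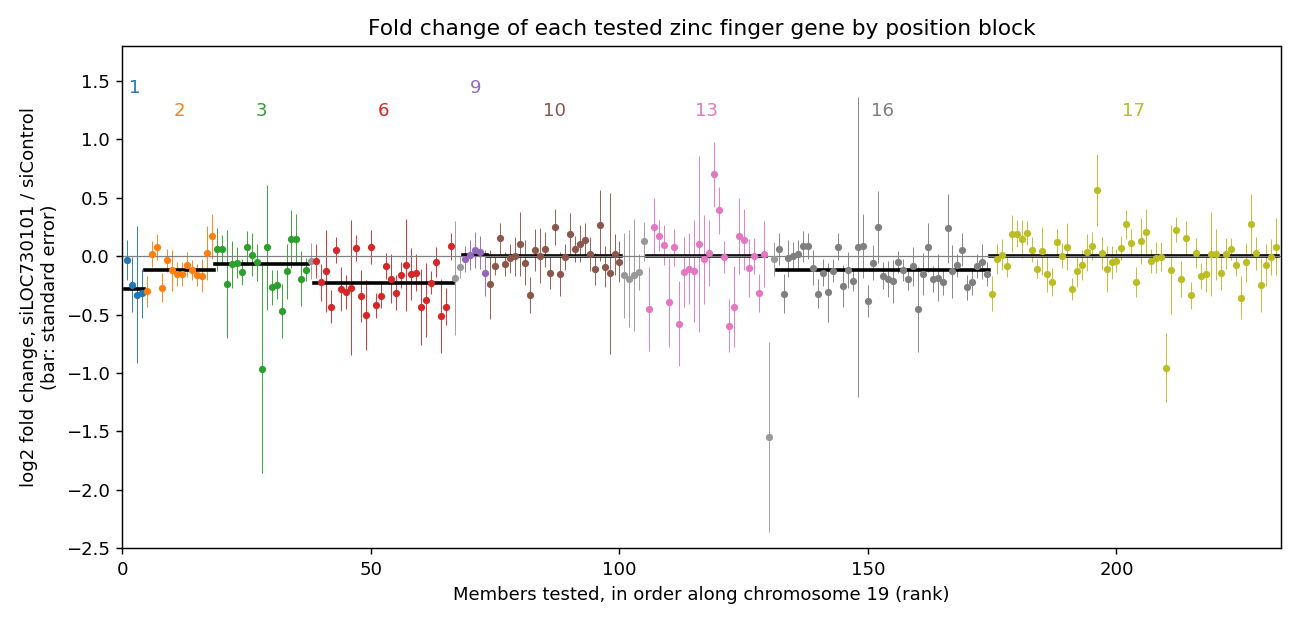
Log2 fold change of siLOC730101 against siControl for each of the 232 tested genes (points, with the standard error as a bar), in their order along chromosome 19. Colours and numbers mark the blocks with at least 5 genes, grey the smaller ones, and black lines the block medians, which are lowest in block 1 (-0.28, 4 genes) and block 6 (-0.23, 28 genes) and at 0 in blocks 10, 13 and 17.

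**Figure D3:**
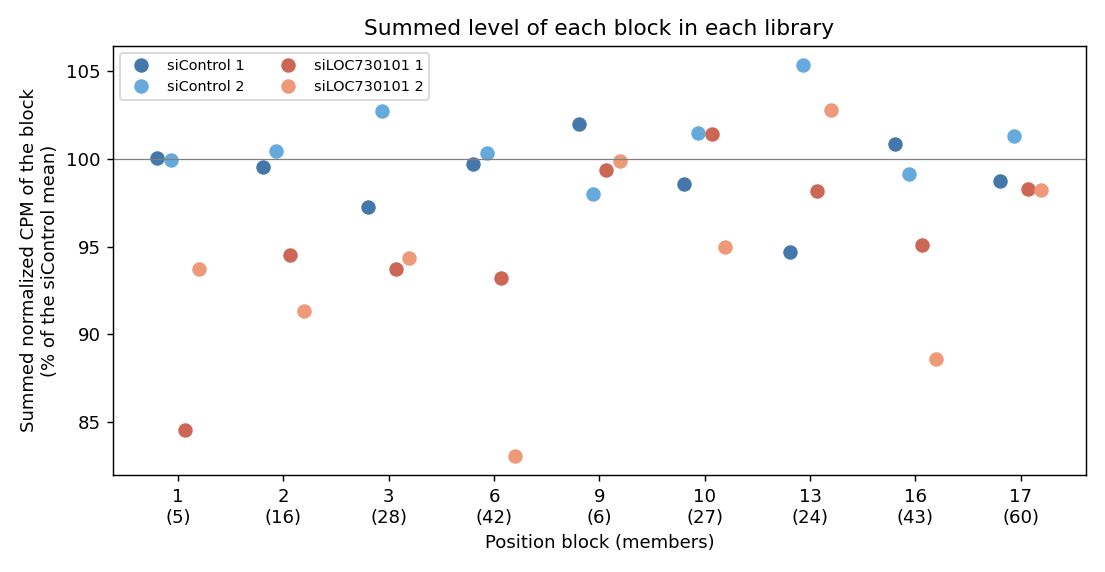
Summed normalized CPM of each block in each library, as a percentage of the siControl mean, for the blocks with at least 5 genes (number of genes in parentheses). The siLOC730101 libraries are at 93.2% and 83.1% in block 6 and at 95.1% and 88.6% in block 16, while both are at 98.2% in block 17.

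The promoter motifs shown above were unevenly spread over the blocks. CCAATCAG, searched on both strands and including every CCAATCAG that is also counted as a CCAAT box, was found in 29 of the 29 promoters of block 6, in 21 of 24 in block 3 and in 4 of 5 in block 1. It was found in 0 of 54 promoters in block 17, 0 of 25 in block 10, 1 of 20 in block 13, 1 of 32 in block 16 and 0 of 14 in block 2, and in 3.98% of the 27089 promoters of other genes. In block 6 the copy nearest the start lay 23 to 84 bases upstream, with a median of 56, and 14 of the 29 promoters had at least 2 copies on the gene's strand, the nearest pair always 28 or 29 bases apart. ACTACA, searched on both strands, was found in 29 of 54 promoters in block 17, 12 of 20 in block 13 and 10 of 25 in block 10, but in 0 of 29 in block 6, 0 of 24 in block 3, 1 of 32 in block 16, 3 of 14 in block 2 and 1 of 5 in block 1, and in 8.80% of other promoters. Block 16 thus had almost none of either motif.

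The fold changes were set beside these motifs, which were chosen after the values and the sequences had been seen. The 43 tested genes with CCAATCAG in the promoter had a median log2 fold change of -0.16 and the 154 without it -0.04. The 57 tested genes with ACTACA had a median of -0.03 and the 140 without it -0.08. A commoner motif, the GC box GGGCGG, gave a gap of similar size, with -0.08 in the 130 genes that have it and -0.0034 in the 67 that do not. Genes of 1 block share both their promoters and their origin by duplication, so these are not independent of the block medians, and the part of the motifs in the result was not tested. Of 4 other motifs searched on both strands, the GC box GGGCGG was in 67.6% of the members' promoters and 44.6% of all promoters, the ETS core CGGAAG in 58.3% and 19.9%, GCCATNTT, the core bound by YY1, in 14.4% and 6.82%, and the TATA box TATAAA in 1.85% and 11.9%. The NRF1 motif CGCATGCG was in 3.24% and 2.19%. A match describes the letters only and does not show that a factor binds.

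Classes of proteins were compared in the same way. The 189 tested genes with a KRAB box had a median log2 fold change of -0.08 with 126 below 0, and the 32 without one a median of 0.01 with 15 below 0. The sums were 3481 and 3487 CPM against 3371 and 3166 for genes with a KRAB box (-6.20%), and 910 and 968 against 893 and 944 for those without (-2.15%). In the first class the groups did not overlap and in the second they did. The difference between the class medians, -0.09, was 0.05 without siLOC730101 replicate 2, so that its direction rested on that library. By number of fingers, the 11 tested genes with 0 to 5 fingers had a median of 0.08 with 2 below 0, and the medians were -0.05 for 6 to 10 fingers (66 genes), -0.08 for 11 to 15 (94 genes) and -0.09 for 16 or more (50 genes).

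These classes also differed in base composition. The median GC content of the transcript was 42.4% for the tested members and 49.4% for all tested coding genes, 37.3% in block 6, 42.1% for genes with a KRAB box and 61.3% for those without. Across all coding genes, the median log2 fold change was -0.03 in the lowest quartile of GC content, -0.0038 in the second, 0.04 in the third and 0.07 in the highest. Members followed the same order, at -0.09 (110 genes), -0.08 (79), -0.03 (11) and 0.06 (21). In each quartile the members' median was below that of the other coding genes, by the least in the highest. Across the 221 members with a GC value, GC content and log2 fold change had a Pearson r of 0.161 and a Spearman rho of 0.162, over points that share the 4 libraries. The part of GC content in the lower values of the members was not tested.

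**Figure D4:**
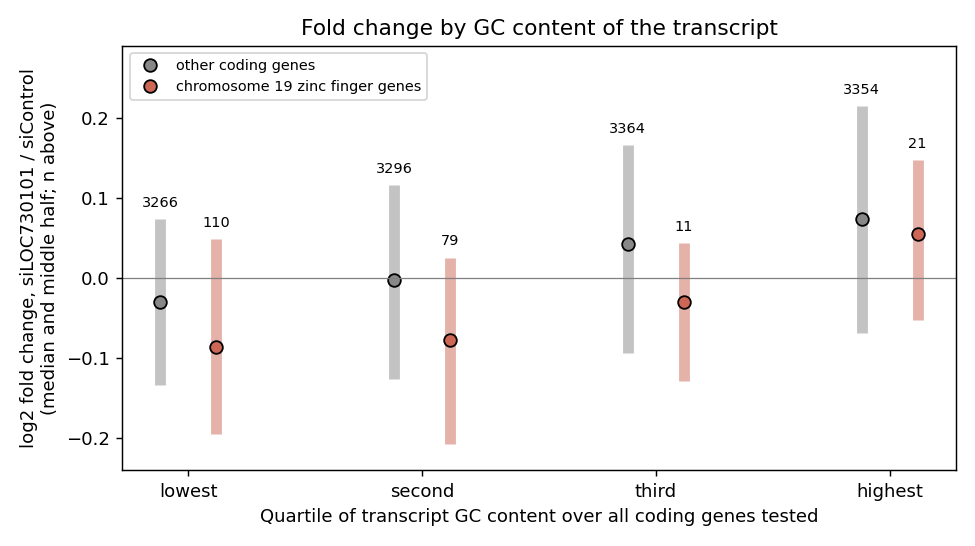
Median log2 fold change (points) and range from the lower to the upper quartile (bars) by GC content of the transcript, in quartiles set over all coding genes tested, for other coding genes (grey) and chromosome 19 zinc finger genes (red), with the number of genes above each bar. The medians of the members run from -0.09 in the lowest quartile to 0.06 in the highest.

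Among single genes, those lowest in the siLOC730101 libraries with no overlap between groups and a mean count of at least 50 were small in level. ZNF154, a KRAB gene known to be silenced by promoter methylation in many tumours, had 4.14 and 4.06 CPM in the siControl libraries and 2.39 and 1.84 in the siLOC730101 libraries. Its log2 fold change was -0.95 (SE 0.294, adjusted p = 0.197). The siLOC730101 libraries were both far below the siControl pair, which differed little, and the call still missed the threshold. ZNF227 had 6.42 and 8.46 CPM against 4.48 and 5.37 (-0.59, SE 0.226), and ZNF235, whose exons overlap those of ZNF227 on the opposite strand, had 2.87 and 2.20 against 2.07 and 1.69 (-0.43, SE 0.346). Reads were counted without strand, so that those from the shared stretch of the 2 genes cannot be told apart.

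ZNF221 had 2.03 and 2.78 CPM against 1.56 and 1.66, with a log2 fold change of -0.58 (SE 0.363). The pseudogene ZNF321P, which shares exons with the readthrough gene ZNF816-ZNF321P, had 2.55 and 1.94 CPM against 1.78 and 1.50 (-0.46, SE 0.367). ZNF563, in block 3, had 5.48 and 6.64 CPM against 4.06 and 4.69 (-0.47, SE 0.232). In these 3 genes the gap between the nearest libraries of the groups was smaller than the spread within the siControl pair. From block 6, ZNF681 had 3.83 and 2.73 CPM against 2.58 and 2.03 (-0.51, SE 0.318) and ZNF85 had 3.22 and 4.83 against 3.12 and 2.55 (-0.50, SE 0.297). Their groups were separated only narrowly.

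ZNF225 was the highest. It had 3.26 and 2.99 CPM in the siControl libraries and 6.18 and 3.98 in the siLOC730101 libraries, with replicate 1 well above replicate 2, and a log2 fold change of 0.70 (SE 0.277, adjusted p = 0.339). Its exons overlap ZNF225-AS1 on the opposite strand. ZNF234, from the same block, had 5.77 and 6.75 CPM against 7.55 and 8.90 (0.39, SE 0.203), so that block 13 held both the highest member and several of the lowest. ZNF547 had 2.39 and 2.29 CPM against 3.97 and 2.95 (0.57, SE 0.305), and it overlaps TRAPPC2B on its own strand. ZNF773 had 17.9 and 17.7 CPM against 22.2 and 20.8 (0.27, SE 0.126). The siControl values of ZNF547 and ZNF773 were close together and the siLOC730101 values all higher.

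ZNF776 had 29.6 and 28.5 CPM against 34.4 and 33.6 (0.23, SE 0.107), and ZNF420, known as a regulator of p53 under the name Apak, had 13.3 and 11.3 against 15.1 and 14.1 (0.25, SE 0.155). ZNF540 had 2.66 and 2.67 CPM against 2.73 and 3.69 (0.26, SE 0.302), where only the second siLOC730101 library stood apart. ZNF787, also among the most abundant genes, had 43.4 and 47.4 CPM against 48.4 and 55.9. ZNF225 and ZNF773 were the 2 higher members at an unadjusted p under 0.05, and none of these 8 genes passed the adjusted threshold.

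**Figure D5:**
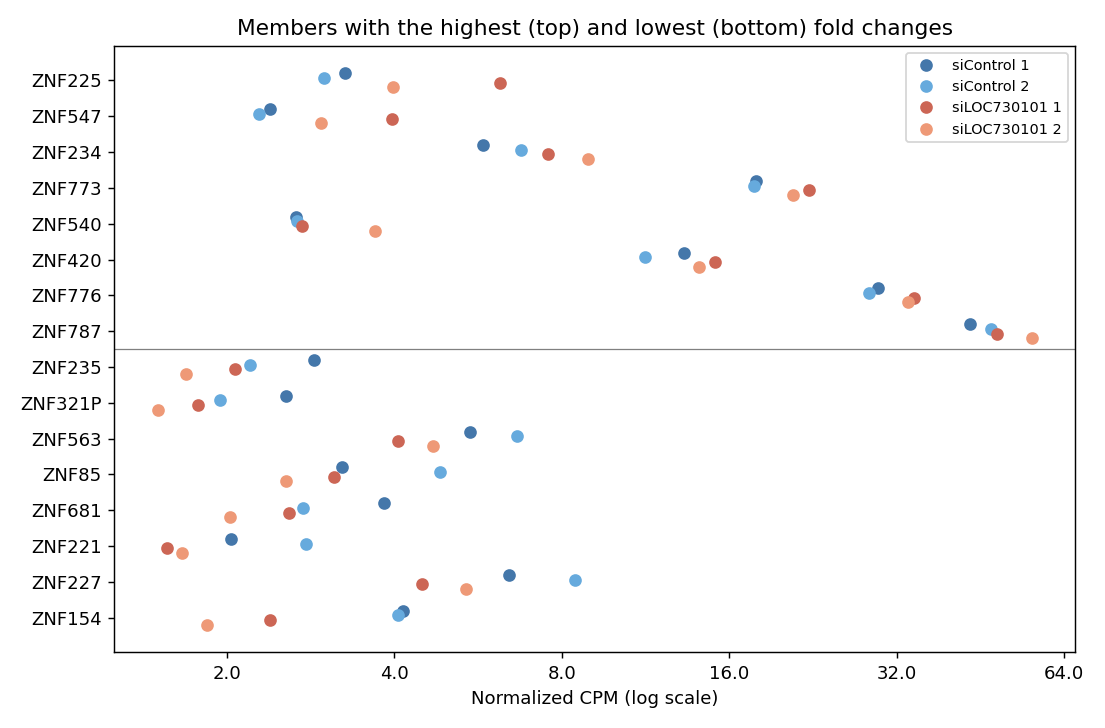
Normalized CPM in each library (log axis) of the 8 members with the highest (top) and the 8 with the lowest (bottom) log2 fold change among those with a mean count of at least 50 and no overlap between groups. Of these 16 genes, 12 lie below 10 CPM, and the gap between groups is widest for ZNF154, at 4.14 and 4.06 against 2.39 and 1.84 CPM.

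The 3 members described next, all from block 6, were chosen after their values were seen. ZNF714 was counted 2530 and 2673 times under siControl and 1633 and 1437 times under siLOC730101, or 46.8 and 57.1 CPM against 39.7 and 37.9. Its log2 fold change was -0.42 (SE 0.110, adjusted p = 0.131), which was the lowest adjusted p of all members. It was called lower by DESeq2 (adjusted p = 0.0451), with no filter on low counts (adjusted p = 0.00951 by edgeR), and without siControl replicate 1 or siLOC730101 replicate 1, with adjusted p of 0.0180 and 0.00645 by edgeR. It was not called without siControl replicate 2, where the log2 fold change was -0.27, or without siLOC730101 replicate 2. ZNF431 had 33.4 and 33.5 CPM against 27.5 and 25.5 (-0.34, SE 0.110), and ZNF726 had 13.3 and 13.7 against 10.0 and 10.0 (-0.43, SE 0.157). In both, the libraries of a group were closer to each other than the groups were.

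ZNF91 and ZNF93, the members best known for repressing SVA and LINE-1 elements in primate genomes, lie in block 6 as well. ZNF91 had 87.7 and 87.7 CPM in the siControl libraries and 82.4 and 67.3 in the siLOC730101 libraries. Its log2 fold change was -0.23 (SE 0.0978, adjusted p = 0.404), and the lower value rested mainly on replicate 2, since it was -0.09 without that library and -0.37 (adjusted p = 0.00465 by edgeR) without replicate 1. ZNF93 had 9.51 and 8.97 CPM against 8.40 and 6.82 (-0.28, SE 0.189), with the same order of the libraries. The highest gene of the block was ZNF254, at 32.1 and 28.2 against 33.5 and 30.4 CPM (0.09, SE 0.115), where the groups overlapped.

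Other members with a described role were not called either. ZNF274, which brings the methyltransferase SETDB1 to the 3′ ends of zinc finger genes, had 45.8 and 45.0 CPM against 49.4 and 45.5 (0.06, SE 0.0967). ZNF331, an imprinted gene, had 45.0 and 40.6 against 37.8 and 39.4 (-0.15, SE 0.102), with no overlap between groups. ZNF667 had 22.8 and 23.2 against 19.6 and 19.9 (-0.22, SE 0.121), also without overlap, and its exons overlap ZNF667-AS1 on the opposite strand. ZNF350, a partner of BRCA1 also called ZBRK1, had 20.3 and 18.9 CPM against 19.7 and 19.97 (0.02, SE 0.126), and ZNF382, a reported tumour suppressor, had 13.6 and 20.1 against 17.0 and 16.6, where the siControl libraries differed more than the groups.

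ZNF473, which takes part in the processing of histone transcripts, had a log2 fold change of -0.03 (SE 0.143), ZNF444 0.06 (SE 0.107), ZNF175 0.06 (SE 0.139) and ZNF536, a repressor of neuronal differentiation expressed here at about 1 CPM, -0.19 (SE 0.486). The groups overlapped in all 4 of them. ZNF146 had 153 and 161 CPM in the siControl libraries and 152 and 144 in the siLOC730101 libraries, where the groups nearly touched.

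The lowest and highest genes of the other blocks showed how wide the spread is at low counts. ZNF114, the only tested gene of block 14, had 69, 16, 14 and 8 counts, a log2 fold change of -1.55 (SE 0.812) and a single siControl library that stood apart, and its exons overlap ZNF114-AS1. ZNF20, the lowest in block 3, had 22 and 33 counts against 5 and 17 (-0.96, SE 0.889), and ZNF57, the lowest in block 1, had 40 and 49 against 27 and 29 (-0.33, SE 0.589). These large fold changes rest on few counts. ZNF850, the lowest in block 10, had 16.2 and 14.8 CPM against 13.3 and 11.2 (-0.33, SE 0.155), and ZNF557, the lowest in block 2, had 20.4 and 19.2 against 15.7 and 16.5 (-0.30, SE 0.132). Both were separated between the groups without passing the adjusted threshold.

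At the upper end of the blocks, ZNF137P in block 16 had a log2 fold change of 0.25 (SE 0.310), ZNF846 in block 2 had 0.17 (SE 0.190) and ZNF443 in block 3 had 0.15 (SE 0.216), each below 1 standard error. In block 12, ZNF526 was at 0.13 (SE 0.166) and ZNF574 at -0.13 (SE 0.154). ZNF599 and ZNF792, the extremes of block 9, were at 0.05 (SE 0.155) and -0.14 (SE 0.194), and ZNF780A and ZNF780B, of block 11, at -0.16 (SE 0.481) and -0.19 (SE 0.418). The only or highest genes of blocks 1, 4 and 8, which were ZNF554, ZNF333 and ZNF507, were at -0.03 (SE 0.171), -0.04 (SE 0.153) and -0.09 (SE 0.0937). None of these could be distinguished from no change, and 3 of the blocks they come from hold 1 or 2 tested genes.

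The partners through which KRAB zinc finger proteins act were examined as a list of 32 genes. ZFP57 had 0 counts in every library, and 0 of the other 31 were called by edgeR, with 2 lower (4.39% of all tested genes were) and 1 higher (6.43% were) at an unadjusted p under 0.05, which were CBX5 and DNMT1 and, on the higher side, SUMO3, the last 2 named after their values were seen. Their median log2 fold change was -0.04, with 21 below 0. TRIM28, the scaffold that binds the KRAB box, had 332 and 353 CPM in the siControl libraries and 359 and 376 in the siLOC730101 libraries (0.10, SE 0.0727), above the control pair in both but not called (adjusted p = 0.660 by edgeR). CBX5, an HP1 protein that reads the repressive mark, had 423 and 398 CPM against 364 and 341 (-0.22, SE 0.0735, adjusted p = 0.240). In CBX5 the gap between the groups was larger than the spread within either, and it was called lower by edgeR without siLOC730101 replicate 1 (adjusted p = 0.0114).

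The methyltransferase SETDB1 had 45.0 and 40.4 CPM against 42.5 and 39.2 (-0.06, SE 0.103), and the HP1 protein CBX3 had 368 and 396 against 401 and 389 (0.05, SE 0.0726). MORC2 and TASOR, of the silencing machinery of the HUSH complex, had log2 fold changes of 0.07 (SE 0.0910) and -0.08 (SE 0.0849). The groups overlapped for SETDB1, CBX3 and MORC2 but not for TASOR, which had 72.8 and 74.9 CPM against 69.8 and 69.5.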

How the data were processed

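RNA was sequenced from 4 DaroR libraries. The values are counts: after trimming with Trim-galore and alignment, the authors deposited 1 table of unnormalized counts of 60606 genes from featureCounts 2.0.1. The table's header names hg38 and gencode 41, while the study's methods name hg19 and an older release, and STAR there stands against BWA in the submitters' processing notes. The counting command has no paired-end or strand option, and 66.0% to 70.1% of the counts from 1 to 20 in a library were even, so that mates may have been counted apart. Library totals were 39213498 to 53368158, which limits the precision of genes with few counts, and counting error is the smallest error a value can have. LOC730101 was found in the table by its RefSeq position on chromosome 6.

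Counts were filtered with filterByExpr at its defaults (minimum count 10), scaled with TMM and fitted with glmQLFit and glmQLFTest of edgeR 4.0.16 (R 4.3.3, legacy method without robust moderation), with the condition as the only term and Benjamini-Hochberg adjustment over 19349 genes. Log2 fold changes are siLOC730101 against siControl, and normalized CPM uses the TMM library sizes. The dispersion corresponded to a biological coefficient of variation of 0.147. The test was tried on simulated counts. The chi-square per degree of freedom between the 2 libraries of a group was 10.6 for siControl and 13.0 for siLOC730101, so that neither pair was 1 library deposited again. DESeq2 1.42.0 was an alternative, with other scalings, filters, settings and libraries left out.

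Coding sequences, GC content and shared 50-base windows came from gencode 44 on GRCh37 and were joined by symbol for 245 members, since the RefSeq proteins foreseen for this were not used here. A finger was counted where a translated sequence held 2 cysteines and 2 histidines at the C2H2 spacing, and a KRAB box where at least 6 of 7 fixed residues of its A box were present in any coding transcript. Promoters came from RefSeq (GRCh38.p14). No coordinates were converted. Python 3.11.15 was used. Genes named were 16 members, 8 with the highest and 8 with the lowest fold change, of those with a mean count of at least 50 and no overlap between groups, the 6 highest by CPM per kilobase, 12 members with a described role, 6 corepressor genes, and the highest and lowest member of each block. The members and the lists were chosen with earlier results of these data known. The results of 2 marker genes are not reported here.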

Additional observations from a re-analysis of the deposited data

How the results depend on the processing

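Each result was recomputed with 1 choice changed at a time. The knockdown of LOC730101 was called in every alternative run, at -1.67 to -1.44 with a library left out. With all libraries kept, the count of members called, 0, became 1 (ZNF714, lower) with no filter on low counts and with DESeq2. It was 19 at an unadjusted p under 0.05. The count was not stable with a library left out either, where 1 group holds a single library. The share of all genes called with no filter or with DESeq2 was not worked out. Among the genes named by the rule, which leaves out ZNF714, 0 were called in any run that kept all libraries. Without siLOC730101 replicate 1 this did not hold for ZNF91, as described above. Of the corepressor genes, 0 to 3 were called with a library left out (CBX5, RIF1 and SUMO3 without siLOC730101 replicate 1). For every one of these calls the cause was not tested.

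The labels number the libraries of both groups alike, but same-numbered libraries did not deviate together (a correlation of deviations of -0.00090), so that the numbers are not taken to pair them. With the replicate number as a block, 1 member (ZNF714, lower) and 1 corepressor gene (CBX5, lower) were called, and the log2 fold change of ZNF382 was 0.023. The share of all genes called with that block was not worked out.

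With a library left out, the member median was -0.11 to -0.04, the member median minus that of all genes -0.11 to -0.024, and minus that of zinc finger genes on other chromosomes -0.062 to -0.016 (-0.028 with all libraries). The median with a KRAB box minus the median without one was -0.20 to 0.049, the median of block 6 was -0.37 to -0.12, the number of members whose groups did not overlap 151 to 174 (88 with all libraries, where fewer libraries make overlap less likely by construction), and the summed level -6.49% to -3.62%. The summed level was -7.65% with library size only. The medians of the members kept a value below 0 in every alternative.

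None of the single genes below was called with all libraries. Without a composition factor or with upper-quartile factors, respectively, ZNF350 turned to -0.022 and -0.015, ZNF358 to -0.022 and -0.014, and ZNF524 to -0.026 and -0.019, and ZNF382 was 0.0096 with the legacy method off. With a library left out, the log2 fold change changed sign within -0.035 to 0.62 for ZNF137P, -0.018 to 0.15 for ZNF175, -0.0022 to 0.18 for ZNF254, -0.13 to 0.053 for ZNF333, -0.032 to 0.070 for ZNF350, -0.15 to 0.18 for ZNF358, -0.25 to 0.31 for ZNF382, -0.125 to 0.22 for ZNF444, -0.14 to 0.090 for ZNF473, and -0.18 to 0.19 for ZNF524. It did so within -0.35 to 0.0030 for ZNF536, -0.12 to 0.069 for ZNF554, -0.070 to 0.17 for ZNF599, -0.43 to 0.11 for ZNF780A, -0.70 to 0.33 for ZNF780B, -0.30 to 0.039 for ZNF792, -0.39 to 0.027 for ZNF83, -0.13 to 0.019 for SETDB1, -0.00020 to 0.11 for CBX3 and -0.0033 to 0.16 for MORC2. In all, 34 of 804 values of 62 single genes changed sign, over 20 genes, and 12 passed the adjusted threshold. The depth limits these results at low counts, where standard errors reached 1.28.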
